A study of Mus musculus with 6 samples.

Results

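The genes described here encode the chains of collagens, the structural proteins of the extracellular matrix. The members are all protein-coding genes of the count table whose GENCODE M21 symbol has the form Col, number, a, number, which gave 44 genes of 48820 gene identifiers in all. They fall into 11 fibrillar, 9 network, 9 FACIT, 9 basement membrane and 4 transmembrane genes, and 2 genes, Col26a1 and Col28a1, outside these classes. RNA-seq was done on spheroids, rounded clusters of cultured cells, of 4T1, a mouse mammary carcinoma line labelled as triple-negative breast cancer. The groups were 3 libraries of LATS1/2 double-knockout (dKO) cells and 3 libraries of wild-type (WT) cells, both kept as spheroids in the same serum-containing medium with no other treatment in the labels. LATS1 and LATS2 are the kinases of the Hippo pathway that phosphorylate the transcriptional coactivators YAP and TAZ. The labels name no clone, so how many edited clones the dKO libraries stand for is not given in the sources used here.

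A collagen molecule is a triple helix of chains from the same or from partner genes. Fibrillar collagens assemble into fibrils, and FACIT collagens, fibril-associated collagens with interrupted triple helices, sit on the surface of those fibrils. Network-forming and basement membrane collagens build sheets and meshes, of which the type IV network under epithelia is the best known, and transmembrane collagens span the cell membrane. Helices are built in the endoplasmic reticulum by prolyl and lysyl hydroxylases and the chaperone encoded by Serpinh1, and are trimmed by proteases and crosslinked by lysyl oxidases outside the cell. In bulk samples such as these, fewer cells of a type and less RNA per cell cannot be told apart.

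The promoters shown here are those of genes that are neighbours on a chromosome and that moved together (Col6a2, Col6a1 and Col18a1, chromosome 10) or in opposite directions (Col4a6 and Col4a5, chromosome X). Each line gives the bases before the annotated start, from RefSeq on GRCm38.p6, 5′ to 3′ on the gene's strand, leaving out bases of any annotated exon. The stretches are chr10:77166549-77166780 on the minus strand for Col18a1, chr10:76726169-76726294 on the minus strand for Col6a1, chr10:76623631-76623880 on the minus strand for Col6a2, chrX:141475169-141475384 on the plus strand for Col4a5 and chrX:141474077-141474326 on the minus strand for Col4a6. Capitals mark matches to the motifs searched, here only the GC box.
Col18a1: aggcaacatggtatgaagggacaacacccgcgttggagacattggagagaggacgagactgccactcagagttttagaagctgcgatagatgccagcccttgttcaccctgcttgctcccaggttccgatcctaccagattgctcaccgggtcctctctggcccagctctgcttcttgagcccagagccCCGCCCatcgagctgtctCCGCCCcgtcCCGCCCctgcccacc
Col6a1: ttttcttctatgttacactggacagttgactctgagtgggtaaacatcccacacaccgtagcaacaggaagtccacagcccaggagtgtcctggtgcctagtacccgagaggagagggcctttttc
Col6a2: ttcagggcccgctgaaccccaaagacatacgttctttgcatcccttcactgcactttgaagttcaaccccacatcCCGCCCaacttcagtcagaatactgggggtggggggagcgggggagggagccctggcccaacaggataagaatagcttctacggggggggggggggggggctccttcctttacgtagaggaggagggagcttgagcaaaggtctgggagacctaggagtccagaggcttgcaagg
Col4a5: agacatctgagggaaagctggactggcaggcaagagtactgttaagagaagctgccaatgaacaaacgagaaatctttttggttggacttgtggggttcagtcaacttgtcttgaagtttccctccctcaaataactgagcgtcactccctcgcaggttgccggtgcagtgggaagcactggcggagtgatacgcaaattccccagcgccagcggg
Col4a6: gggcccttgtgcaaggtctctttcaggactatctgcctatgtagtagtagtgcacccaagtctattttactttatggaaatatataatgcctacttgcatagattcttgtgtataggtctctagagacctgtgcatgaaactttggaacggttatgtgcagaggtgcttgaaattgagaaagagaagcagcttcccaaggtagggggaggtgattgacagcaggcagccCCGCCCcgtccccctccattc
The motifs searched on both strands were GGAATG, the core bound by TEAD factors, TGANTCA, bound by AP-1 factors, the GC box GGGCGG and the TATA box TATAAA. The Col18a1 stretch held 3 GC boxes, those of Col6a2 and Col4a6 held 1 each, and those of Col6a1 and Col4a5 held none of the 4 motifs. No base of these stretches lay in more than 1 motif match. Another window of 250 bases for Col18a1 held 2 TEAD cores, and another for Col6a2 held 1 TEAD core and 3 GC boxes. Those windows are not shown, because 241 and 226 of their bases lay in annotated exons. With exon bases included, the Col6a1 window held 1 AP-1 motif and the Col4a5 window held 1 GC box. Over whole windows of 250 bases before the start, 35 of the 44 members were matched to RefSeq, with 38 windows. The TEAD core was in 4 of these windows and in 12.64% of all 32851 promoter windows of that length. The AP-1 motif was in 1 of them and in 6.75% of all windows. The GC box was in 22 of them and in 32.74% of all windows, and the TATA box in 5 of them and in 12.37% of all windows. These matches are descriptions of the letters only.

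Total counts ran from 38194478 to 49630116 per library, and collagen genes took 0.230% to 0.259% of the counts in dKO libraries and 0.283% to 0.315% in WT libraries. Of the genes named in the dKO label, Lats1 averaged 50.9 ± 2.55 CPM in dKO and 153 ± 6.36 CPM in WT libraries (SD, n = 3 each). CPM is the count of a gene relative to the scaled total of its library (TMM). Lats2 averaged 77.9 ± 12.5 CPM in the libraries labelled dKO, higher than the 27.2 ± 4.01 CPM of WT libraries (edgeR adjusted p = 3.46e-05). Edited transcripts can still be counted, so neither the level of Lats1 nor that of Lats2 tests its knockout. Directions below are between libraries as labelled. In the principal components, dKO 3 and WT 2 stood away from their own groups. Collagen calls that depend on them are given with and without them. For other genes no values without these libraries are given. Of the markers of the labelled cell type, 4 epithelial genes rose and 4 fell among 10 tested, against 28.6% higher and 28.7% lower over all tested genes. Epcam averaged 288 ± 15.7 CPM in dKO and 795 ± 20.6 CPM in WT libraries. Krt19 averaged 319.9 ± 46.3 CPM in dKO and 103 ± 6.95 CPM in WT libraries, while Krt5 was at 0. The progesterone receptor gene Pgr was at 0 in all 6 libraries, the estrogen receptor gene Esr1 averaged 7.997 ± 1.45 CPM in dKO and 6.08 ± 1.70 CPM in WT, and Erbb2 averaged 64.9 ± 11.2 CPM in dKO and 194 ± 20.1 CPM in WT.

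Of the 44 collagen genes, 25 passed the filter on low counts and were tested, and 19 were not tested. Among the 25, 7 rose in dKO spheroids, 9 fell and 9 did not pass the test (edgeR quasi-likelihood test, adjusted p under 0.05 over 15807 genes). Of all tested genes, 57.3% were called, 28.6% as higher and 28.7% as lower in dKO, so the collagen share of 64% was near that of the whole table. A fitted change of at least 2-fold was called for 12 of the 25 collagen genes, a larger share than the 26.1% of all tested genes. The dKO and WT libraries did not overlap in CPM for 18 of the 25, against 65.6% of all tested genes. The median log2 fold change, dKO over WT, was -0.27 over the 25 collagen genes and -0.005 over all tested genes. Genes with low values pass the filter through the group in which they are higher, so these counts describe the members and do not set them apart from other genes. Without dKO 3 and WT 2, 17 of 25 tested collagen genes were called, 8 higher and 9 lower in dKO. In the same setting 10139 of all 16274 tested genes were called, against 9060 of 15807 with all libraries.

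**Figure D1:**
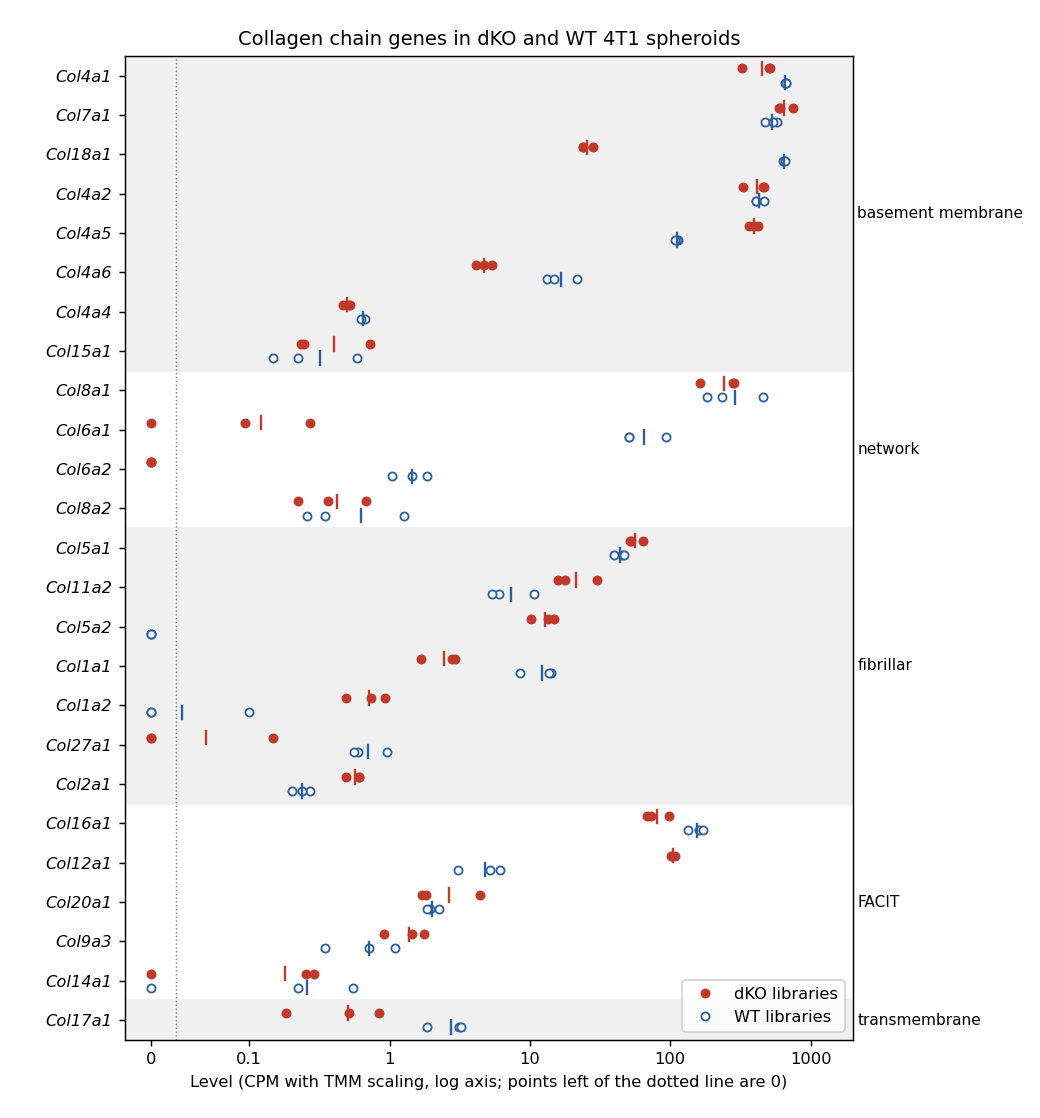
Level of each of the 25 tested collagen genes in CPM on a log axis, by class, with 1 point per library (filled for dKO, open for WT), a bar at each group's mean, and points left of the dotted line at 0. Col18a1 lies at 24.0 to 28.3 CPM in dKO and 632.8 to 660.3 CPM in WT, and Col12a1 at 100.6 to 108.7 CPM in dKO and 3.06 to 6.08 CPM in WT.

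Basement membrane collagens made up most collagen counts in both groups, with a summed level of 1942 ± 130 CPM in dKO and 2395 ± 20.1 CPM in WT libraries. Of the 8 tested, 2 rose (Col4a5 and Col7a1), 3 fell (Col18a1, Col4a1 and Col4a6) and 3 did not pass (Col4a2, Col4a4 and Col15a1). Col18a1 (ENSMUSG00000001435), whose chain carries heparan sulphate and whose C-terminal fragment is endostatin, had 24.0, 28.3 and 24.1 CPM in dKO libraries against 642.7, 632.8 and 660.3 CPM in WT libraries. The groups were far apart and the 3 libraries within each were close together. Col18a1 was 25.3-fold lower in dKO, a log2 fold change of -4.66 with an SE of 0.09 (adjusted p = 1.05e-08, edgeR). Its 3' end overlaps Slc19a1, a folate transporter gene on the other strand, and it also overlaps Gm7775 there. Slc19a1 itself averaged 22.3 ± 6.56 CPM in dKO and 17.3 ± 0.653 CPM in WT (adjusted p = 0.129), and reads of overlapping genes on opposite strands cannot be told apart here.

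Among type IV chains, Col4a1 and Col4a2 encode the common network of nearly all basement membranes. Col4a1 had 505.2, 515 and 325.2 CPM in dKO libraries against 654.4, 665.6 and 664.5 CPM in WT libraries. All dKO libraries were lower, dKO 3 by the most, and the log2 fold change was -0.56 ± 0.16 (edgeR adjusted p = 0.0156). Col4a2 had 461.5, 464.7 and 327.5 CPM in dKO libraries against 407.5, 467.5 and 407.5 CPM in WT libraries. Its groups overlapped and its log2 fold change was -0.03 ± 0.13 (adjusted p = 0.852). Without dKO 3 and WT 2 the log2 fold change of Col4a2 was 0.19 and passed the test (adjusted p = 0.00166), so its call and its sign depend on those 2 libraries. Col4a1 and Col4a2 lie head to head on chromosome 8 and their annotated 5′ ends overlap.

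Col4a5 and Col4a6, the gene pair of type IV collagen on chromosome X, moved in opposite directions. Col4a5 (ENSMUSG00000031274), which in humans is mutated in Alport syndrome, a hereditary kidney disease, had 395.9, 421.8 and 366.1 CPM in dKO libraries against 114.4, 112.1 and 108.2 CPM in WT libraries. The groups were well separated and Col4a5 was 3.54-fold higher in dKO, with a log2 fold change of 1.82 ± 0.07 (adjusted p = 2.28e-07, edgeR). Col4a6 (ENSMUSG00000031273), the partner chain of Col4a5 in basement membranes of smooth muscle and some epithelia, had 5.34, 4.72 and 4.12 CPM in dKO libraries against 13.2, 21.5 and 14.96 CPM in WT libraries. Every dKO library was below every WT library, with a log2 fold change of -1.81 ± 0.22 (adjusted p = 0.000112). The annotated starts of both genes are 1.31 kb apart and the genes run away from each other, so the promoter stretches printed above flank the same interval. Each gene also overlaps small annotated genes, Gm15268 and Gm15282 for Col4a5 and Gm15077, Gm15078 and Gm15079 for Col4a6.

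Of the other type IV genes, Col4a4 had 0.523, 0.516 and 0.466 CPM in dKO libraries against 0.649, 0.670 and 0.625 CPM in WT libraries, and its difference did not pass the test (adjusted p = 0.525). Its head-to-head neighbour Col4a3 had 29 counts in dKO 1 and 0 in the other 5 libraries and was not tested. Col7a1, whose product forms the anchoring fibrils beneath stratified epithelia, had 597, 606.3 and 746.6 CPM in dKO libraries against 579.9, 472.6 and 541.2 CPM in WT libraries. The groups did not overlap, but the gap between dKO 1 and WT 1 was small, and the log2 fold change was 0.29 ± 0.11 (edgeR adjusted p = 0.0465). This call was lost without dKO 2 (adjusted p = 0.0565), dKO 3 (0.122), WT 2 (0.125) or WT 3 (0.0885), and without both dKO 3 and WT 2 (0.0643). Col15a1, the closest relative of Col18a1, was near the detection limit, at 0.236, 0.246 and 0.722 CPM in dKO and 0.223, 0.149 and 0.582 CPM in WT libraries (adjusted p = 0.732).

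**Figure D2:**
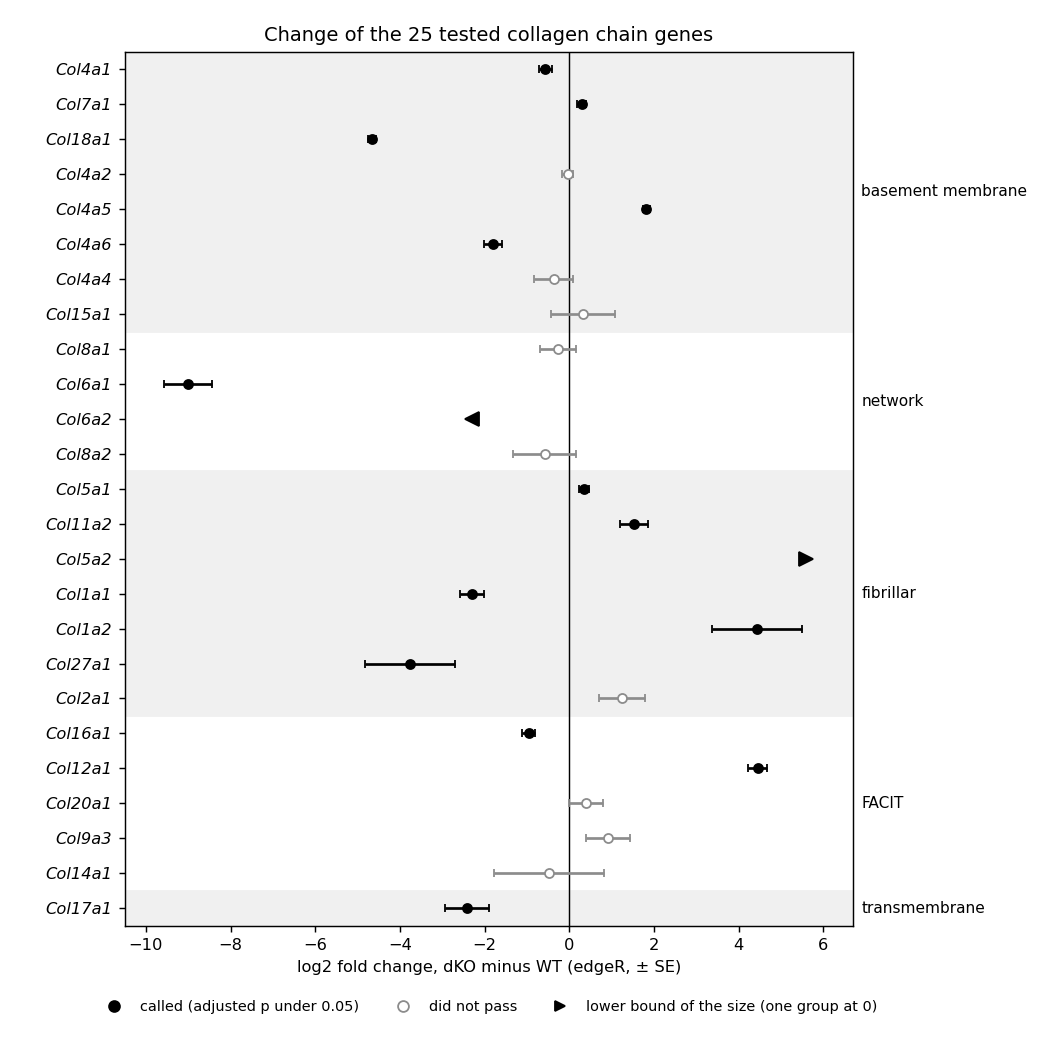
Log2 fold change of each of the 25 tested collagen genes, dKO over WT, with its standard error, by class. Filled points passed the test, open points did not, and the triangles of Col5a2 and Col6a2 mark a lower bound of the size, because 1 group was at 0.

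Of the 9 network collagen genes, 4 were tested: 2 fell (Col6a1 and Col6a2) and 2 did not pass (Col8a1 and Col8a2). Type VI collagen forms beaded filaments around cells, from chains of Col6a1, Col6a2 and a further chain such as that of Col6a3. Col6a1 (ENSMUSG00000001119) had 0, 0.270 and 0.0931 CPM in dKO libraries against 50.9, 93.2 and 50.8 CPM in WT libraries. These were 0, 11 and 4 counts in dKO libraries, at or below the floor of 12 counts per library (taken as 3 read pairs on the assumption, drawn from a pile-up of values at 4, that a read pair adds up to 4 counts). The ratio of WT over dKO was 515 with a 95% counting interval of 188 to 1774 (edgeR adjusted p = 9.99e-06). Without dKO 2, which held 11 of the dKO counts, the fitted log2 fold change of Col6a1 was -10.28, against -9.01 with all libraries, and still passed (adjusted p = 4.92e-05). Col6a2 (ENSMUSG00000020241) was at 0 in all 3 dKO libraries against 1.44, 1.86 and 1.04 CPM in WT libraries, at least 4.88-fold lower in dKO against the floor per library (adjusted p = 0.000259).

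Col6a3 and Col6a6 were at 0 in all 6 libraries, so the chain that completes the classical type VI heterotrimer was not detected in either group. Col6a4 had 0, 16 and 12 counts in dKO libraries and 0 in WT libraries, and Col6a5 had 4 counts in dKO 2 alone. Neither passed the filter. Col8a1, a short-chain collagen of vessel walls and the corneal endothelium, had 278.8, 285 and 163.3 CPM in dKO libraries against 232.3, 460 and 181.9 CPM in WT libraries. WT 2 was the highest and dKO 3 the lowest library, the groups overlapped, and the log2 fold change was -0.27 ± 0.41 (adjusted p = 0.622). Without dKO 3 and WT 2 it was 0.45 and passed the test (adjusted p = 0.0316), so for Col8a1 too the sign and the call depend on those libraries. Its partner Col8a2 had 0.366, 0.221 and 0.675 CPM in dKO and 1.28, 0.347 and 0.259 CPM in WT libraries (adjusted p = 0.541). Col10a1, the hypertrophic cartilage collagen gene, had 2 counts in WT 3 and 0 elsewhere.

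Col6a2, Col6a1 and Col18a1, which all fell, lie in this order on the minus strand of chromosome 10, at 76595762 to 76623630, 76708792 to 76726168 and 77052178 to 77166548 of GRCm38. The gaps between them are 85.16 kb and 326.01 kb. The table holds 4 other genes in this interval, named after their values were seen, of which 2 were tested. Pcbp3, an RNA-binding protein gene between Col6a1 and Col18a1, fell and averaged 2.64 ± 1.14 CPM in dKO against 17.5 ± 2.36 CPM in WT libraries, with a log2 fold change of -2.72 ± 0.32 (adjusted p = 0.000107, edgeR). Slc19a1 did not pass, as given above, and Gm37782 and Gm10787 were at 0.

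Fibrillar collagens summed to 94.2 ± 11.6 CPM in dKO and 65.0 ± 3.89 CPM in WT libraries. Of the 7 tested, 4 rose (Col5a1, Col5a2, Col11a2 and Col1a2), 2 fell (Col1a1 and Col27a1) and Col2a1 did not pass. Col5a2 (ENSMUSG00000026042), a chain of the type V collagen that nucleates and limits the width of fibrils, had 13.4, 14.9 and 10.2 CPM in dKO libraries against 0 CPM in all 3 WT libraries. It was detected in dKO libraries only at this depth, at least 48.1-fold higher against the floor per library (edgeR adjusted p = 2.69e-06). Its partner Col5a1 had 51.4, 52.2 and 64.4 CPM in dKO libraries against 45.5, 46.9 and 40.0 CPM in WT libraries. The groups lay close together without overlap, and the log2 fold change was 0.34 ± 0.11 (adjusted p = 0.0283). The call on Col5a1 was lost without dKO 3 (adjusted p = 0.0753), WT 1 (0.0652) or WT 3 (0.103). It was kept without WT 2 (edgeR adjusted p = 0.0296). Without both dKO 3 and WT 2 the log2 fold change of Col5a1 was 0.28 and passed (edgeR adjusted p = 0.0179). The third type V gene, Col5a3, had 7 counts in dKO 3 and 9 and 4 counts in WT 1 and WT 2, and was not tested.

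Col11a2, a chain of the type XI collagen of cartilage fibrils, had 17.7, 15.97 and 30.1 CPM in dKO libraries against 6.06, 10.7 and 5.39 CPM in WT libraries. All dKO libraries were higher, dKO 3 by the most, with a log2 fold change of 1.53 ± 0.33 (adjusted p = 0.00394, edgeR). Its partner Col11a1 had 4 counts in dKO 1 and 0 elsewhere. Col2a1, the cartilage type II gene, had 0.602, 0.491 and 0.605 CPM in dKO and 0.203, 0.273 and 0.237 CPM in WT libraries, which did not overlap but did not pass the test (adjusted p = 0.0742).

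The type I genes, which encode the main collagen of bone, skin and fibrotic stroma, were low, and Col1a1 fell while Col1a2 rose. Col1a1 (ENSMUSG00000001506) had 2.91, 2.80 and 1.68 CPM in dKO libraries against 14.2, 8.49 and 13.7 CPM in WT libraries. The dKO libraries were all lower, with a log2 fold change of -2.30 ± 0.29 (adjusted p = 0.000152, edgeR). Col1a2 (ENSMUSG00000029661) had 0.733, 0.934 and 0.489 CPM in dKO libraries against 0, 0.0992 and 0 CPM in WT libraries, where it had 4 counts in all. The ratio of dKO over WT was 24.3 with a 95% counting interval of 3.97 to 1013 (adjusted p = 0.00648). Those levels were 28, 38 and 21 counts in dKO libraries, which are few read pairs. Without WT 2, which held all 4 WT counts, Col1a2 was at 0 in WT and still passed (adjusted p = 0.00252).

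Col27a1, a fibrillar collagen gene of developing cartilage, had 0, 0.147 and 0 CPM in dKO libraries against 0.953, 0.595 and 0.561 CPM in WT libraries. The ratio of WT over dKO was 14.5 with a 95% counting interval of 2.67 to 93.9 (edgeR adjusted p = 0.0145), and the call was lost without dKO 1 (0.0509) or WT 1 (0.0640). Without dKO 2, the only dKO library with counts, Col27a1 was at 0 in dKO (adjusted p = 0.00335). Col3a1, the type III gene abundant in fibroblasts, had 0, 13 and 4 counts in dKO libraries and 0, 0 and 18 counts in WT libraries, and was not tested. Col24a1 had 12, 0 and 1 counts in dKO and 3, 7 and 10 counts in WT libraries.

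Of the 9 FACIT genes, 5 were tested: Col12a1 rose, Col16a1 fell, and Col14a1, Col20a1 and Col9a3 did not pass. Col12a1 (ENSMUSG00000032332), whose product binds type I fibrils in tendon and other loaded tissue, had 108.7, 100.6 and 103.4 CPM in dKO libraries against 5.17, 6.08 and 3.06 CPM in WT libraries. The dKO libraries lay close together and far above WT, with a log2 fold change of 4.45 ± 0.22, 21.9-fold higher (adjusted p = 1.06e-06, edgeR). Col12a1 overlaps 4930562D21Rik on the other strand. Col16a1, expressed in skin and smooth muscle, had 72.5, 68.7 and 98.5 CPM in dKO libraries against 160.2, 133.8 and 172.1 CPM in WT libraries. All dKO libraries were lower, with a log2 fold change of -0.96 ± 0.15 (adjusted p = 0.000598).

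The other FACIT genes were low. Col20a1 had 1.81, 1.70 and 4.45 CPM in dKO and 2.25, 1.94 and 1.85 CPM in WT libraries (adjusted p = 0.439), with dKO 3 above the other 5. Col9a3, a chain of cartilage type IX collagen that overlaps Tcfl5, had 1.75, 0.909 and 1.44 CPM in dKO and 1.10, 0.720 and 0.345 CPM in WT libraries (adjusted p = 0.158). Col14a1, which binds fibrils in skin and tendon, had 0.288, 0 and 0.256 CPM in dKO and 0.223, 0.546 and 0 CPM in WT libraries (adjusted p = 0.779). Col9a2, Col19a1 and Col22a1 were at 0 throughout, and Col9a1 had 3 counts in WT 3.

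Of the 4 transmembrane collagen genes only Col17a1, the hemidesmosome collagen of basal keratinocytes, was tested. It had 0.183, 0.836 and 0.512 CPM in dKO libraries against 3.14, 1.86 and 3.23 CPM in WT libraries. The groups did not overlap and the log2 fold change was -2.42 ± 0.53 (edgeR adjusted p = 0.00378). Col23a1 had 11 counts in dKO 1 and 0 elsewhere, and Col13a1 and Col25a1 were at 0 throughout. Outside the classes, Col28a1 had 8 and 15 counts in WT 1 and WT 2 and 0 elsewhere, and Col26a1 was at 0. A level of 0 here allows up to the floor of 12 counts, which is 0.279 to 0.314 CPM in dKO and 0.243 to 0.298 CPM in WT libraries. In all, 8 of the 44 members were at 0 in every library, and the other 11 untested members reached at most 29 counts in a library.

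To compare levels between genes, CPM was divided by the length of the union of annotated exons in kb. On this scale the collagen genes summed to 311.8 ± 26.6 CPM per kb in dKO and 400.6 ± 21.8 CPM per kb in WT libraries (SD, n = 3 each). In dKO libraries the highest levels were those of Col7a1 (63.2), Col4a2 (63.1), Col4a1 (60.1) and Col4a5 (58.7 CPM per kb), whose ranges over libraries overlapped, followed by Col8a1 (30.9) and Col16a1 (11.8 CPM per kb). In WT libraries the order was Col18a1 (91.9), Col4a1 (88.6), Col4a2 (64.6), Col7a1 (51.6), Col8a1 (37.2), Col16a1 (23.0) and Col4a5 (16.6 CPM per kb). Ranges over WT libraries overlapped between Col7a1 and Col8a1, between Col8a1 and Col16a1, and between Col4a5 and the next gene, Col6a1, at 11.6 to 21.3 CPM per kb. Col18a1 thus stood first in WT libraries on this scale. Without the division by length Col4a1 was above Col18a1 in every WT library, with means of 661.5 and 645.3 CPM, so that first place depends on the exon union. In dKO libraries the level of Col18a1 was 3.63 ± 0.351 CPM per kb, below Col12a1 at 6.85 ± 0.270 and Col5a1 at 6.59 ± 0.856 CPM per kb.

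The share of the collagen sum taken by type IV chains was 60.9%, 61.3% and 52.6% in dKO libraries against 42.9%, 42.1% and 43.8% in WT libraries. Their summed level was 197.1, 202.6 and 148.1 CPM per kb in dKO libraries against 168, 179.3 and 168.6 CPM per kb in WT libraries. The groups overlapped through dKO 3 alone, and without dKO 3 and WT 2 both remaining dKO libraries were above both remaining WT libraries. Col4a5 and Col4a6 together held 18.4%, 19.2% and 19.6% of the collagen sum in dKO libraries against 4.77%, 4.56% and 4.67% in WT libraries. Type VI chains held at most 0.0358% of the sum in a dKO library, against 3.01%, 5.06% and 3.05% in WT libraries. Col7a1, Col4a1, Col4a2 and Col4a5 made up 78.6%, 79.0% and 78.2% in dKO and 56.9%, 52.3% and 57.0% in WT libraries.

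**Figure D3:**
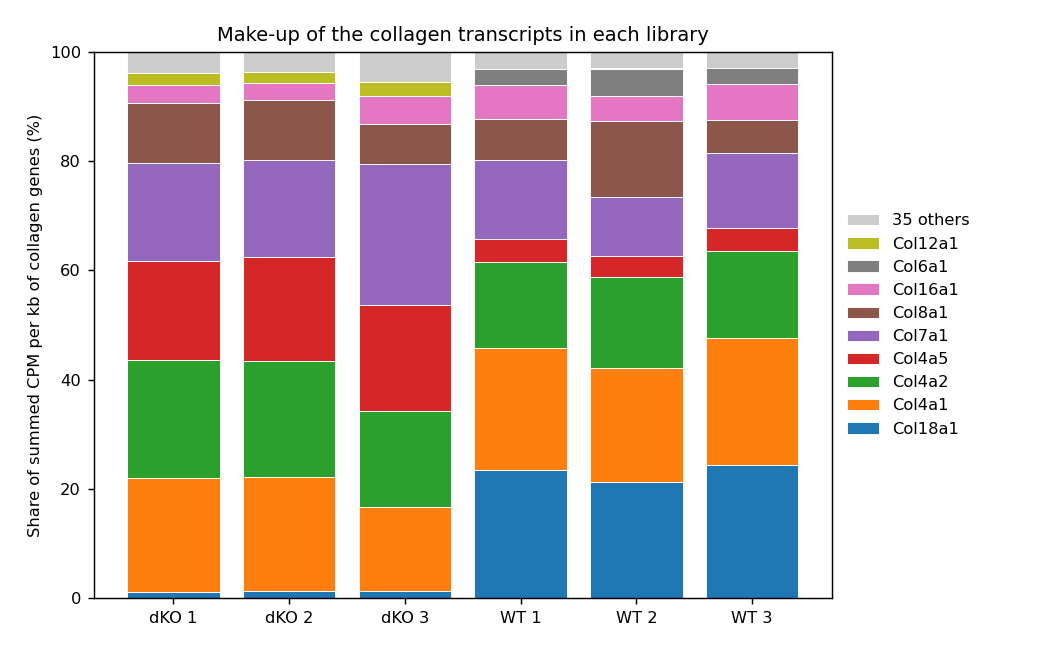
Share of the summed CPM per kb of all 44 collagen genes held by 9 of them and by the rest in each library, dKO libraries on the left and WT libraries on the right. The Col18a1 segment holds 1.06% to 1.22% of each dKO bar and 21.2% to 24.4% of each WT bar, and the Col4a5 segment is wider in all dKO libraries.

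The ratio of partner chains of a molecule was computed from levels per kb and carries no test. Col4a1 over Col4a2 was 0.971, 0.983 and 0.881 in dKO libraries against 1.42, 1.26 and 1.45 in WT libraries, so every dKO library was lower. Col4a5 over Col4a6 was 99.9 ± 10.3 in dKO and 8.35 ± 2.05 in WT libraries, since Col4a5 was the higher one of the pair in both groups and moved further above it in dKO. Col4a5 over Col4a1 was 0.871, 0.910 and 1.25 in dKO libraries against 0.194, 0.187 and 0.181 in WT libraries.

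Col8a1 over Col8a2, taken in the libraries where Col8a2 was above the floor, was 436 and 139 in dKO 1 and dKO 3 against 104 and 759 in WT 1 and WT 2, which overlapped. For 3 other pairs the ratio is given in a single group, because a chain was at or near 0 in the other group, and for Col9a2 over Col9a3 and Col11a1 over Col11a2 there was none in either group. Col4a3 over Col4a4 had a ratio in dKO 1 alone, 1.54. Col5a1 over Col5a2 was 4.34, 3.95 and 7.16 in dKO libraries, and Col5a2 was at 0 in WT libraries. Col1a1 over Col1a2 was 6.56 ± 0.915 in dKO libraries, while Col1a2 was at 0 in 2 of the WT libraries. Col6a1 over Col6a2 was 67.2, 95.2 and 93.4 in WT libraries, and Col6a2 was at 0 in dKO libraries. Without the division by length Col1a1 over Col1a2 was 3.46, so this ratio depends on the exon union, which is long for Col1a2.

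**Figure D4:**
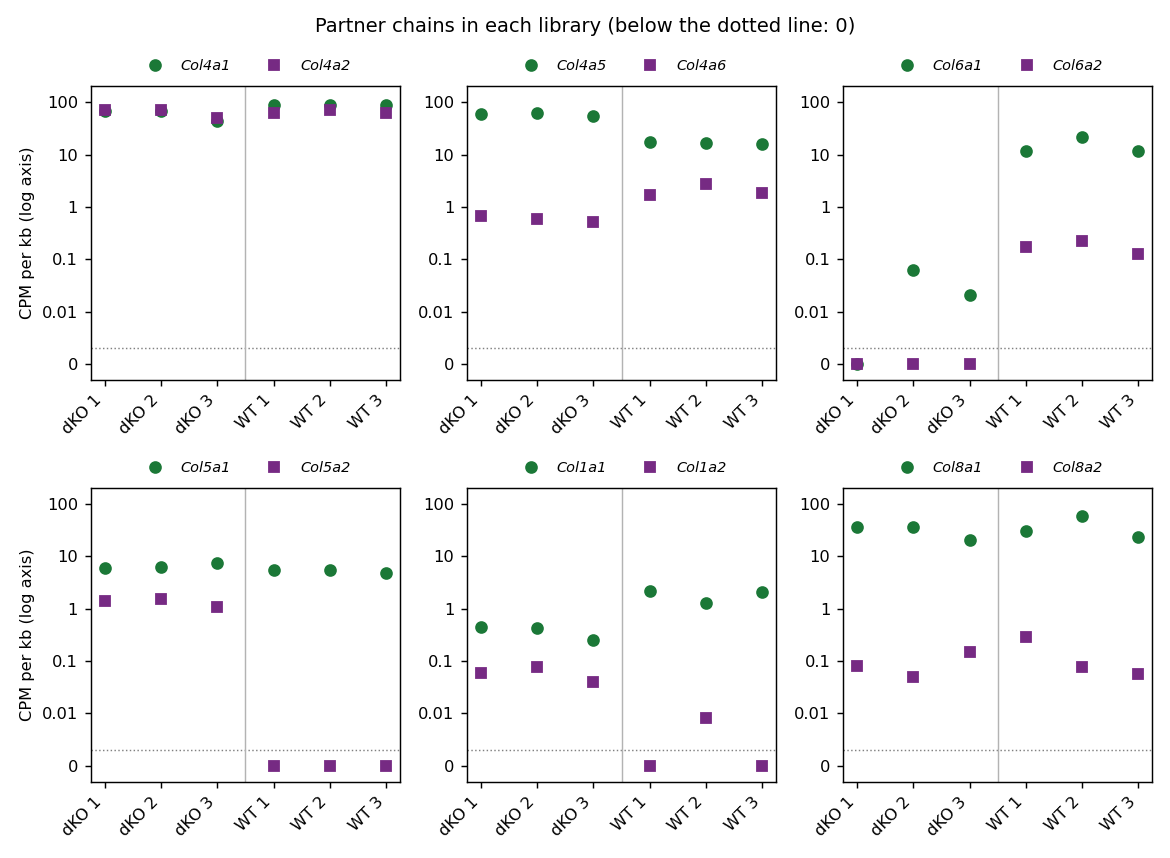
Level per kb of the genes of 6 pairs of partner chains in each library, on a log axis, with dKO libraries left of the line, WT libraries right of it, and points below the dotted line at 0. Col4a5 and Col4a6 move apart in dKO libraries, Col6a1 and Col6a2 are at or near 0 there, and Col5a2 is at 0 in WT libraries.

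Genes that build and process procollagen moved in both directions. Of 27 tested, 9 rose, 12 fell and 6 did not pass. Their median log2 fold change was -0.13, against -0.005 over all tested genes. Over all tested genes, 57.3% were called. Bmp1, the protease that removes the C-terminal propeptide of fibrillar procollagens, fell to 200.5 ± 9.94 CPM in dKO, against 1238 ± 22.7 CPM in WT libraries (edgeR adjusted p = 3.01e-08). P3h2, a prolyl hydroxylase gene that acts on type IV collagen, had 26.8 ± 1.63 CPM in dKO and 2.26 ± 0.574 CPM in WT libraries (adjusted p = 1.06e-06). Serpinh1, the collagen chaperone gene, which was named after its values were seen, had 362.9 ± 39.3 CPM in dKO and 310.6 ± 28.7 CPM in WT libraries and did not pass (adjusted p = 0.0807).

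Of the genes for collagen receptors, 2 rose, 3 fell and 2 did not pass among 7 tested, against 57.3% called over all tested genes (median log2 fold change -1.05). The collagen-binding receptor kinase genes Ddr2 and Ddr1 rose, Ddr2 with 305 ± 17.3 CPM in dKO and 163 ± 16.3 CPM in WT libraries and Ddr1 with 206 ± 11.6 CPM in dKO and 146 ± 8.68 CPM in WT libraries (edgeR adjusted p = 3.31e-05 and 0.000435). The 3 that fell are the genes of the collagen-binding integrin alpha chains Itga1, Itga2 and Itga10, named after their values were seen. Itga2 averaged 19.1 ± 5.36 CPM in dKO and 89.4 ± 29.7 CPM in WT libraries, and the gene of their shared beta chain, Itgb1, also named afterwards, did not pass, at 1189 ± 112 CPM in dKO and 1157 ± 43.5 CPM in WT libraries.

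Of the genes for collagen-degrading proteases, 1 rose (Mmp2), 4 fell and 1 did not pass among 6 tested, against 28.6% higher and 28.7% lower over all tested genes (median log2 fold change -1.49). Mmp9, the gelatinase gene that cuts type IV collagen, had 0.419, 0.172 and 0.256 CPM in dKO libraries against 771.7, 590.4 and 729.3 CPM in WT libraries (edgeR adjusted p = 1.13e-08). Mmp13, a collagenase gene, had 5.15 ± 2.26 CPM in dKO and 45.1 ± 1.93 CPM in WT libraries (adjusted p = 4.55e-05). Of the partners of type IV collagen in the basement membrane, 4 rose, 6 fell and 2 did not pass among 12 tested, against 57.3% called over all tested genes (median log2 fold change -0.18). Lama3, a laminin chain gene, averaged 5.71 ± 0.495 CPM in dKO and 113.9 ± 7.57 CPM in WT libraries, and Lamb2, another laminin chain gene, averaged 237.8 ± 9.24 CPM in dKO and 113.6 ± 3.18 CPM in WT libraries (adjusted p = 2.18e-08 and 2.07e-06).

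Of the fibril-binding proteoglycan genes 3 were tested, of which Ogn rose, at 37.8, 37.0 and 12.7 CPM in dKO libraries against 1.66, 2.08 and 0.496 CPM in WT libraries (edgeR adjusted p = 0.00135). Bgn had 0.529 ± 0.151 CPM in dKO and 0.0744 ± 0.129 CPM in WT libraries and did not pass (adjusted p = 0.0646). Of the genes that YAP and TAZ are known to activate, 14 rose, 4 fell and 2 did not pass among 20 tested, against 28.6% higher and 28.7% lower over all tested genes (median log2 fold change 1.35). Ccn2 averaged 378.6 ± 17.5 CPM in dKO and 19.8 ± 1.02 CPM in WT libraries, and Amotl2 averaged 934.1 ± 119 CPM in dKO and 34.5 ± 1.95 CPM in WT libraries (adjusted p = 8.96e-09 and 2.02e-08). This list holds Lats2 itself.

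Several collagen genes are usual markers of fibroblasts and vessel cells, so the markers of those cells that are no collagens were read beside them. Beside the counts below stand the shares of all tested genes, 28.6% called higher and 28.7% called lower in dKO. The fibroblast list has 14 genes, of which 4 passed the filter, 2 of them higher and 2 lower in dKO, and Dpt, Lum, Tcf21 and Thy1 were at 0 in all libraries. Their summed level was 905.6 to 937 CPM in dKO and 342.1 to 345.1 CPM in WT libraries, most of it Gsn, at 912.6 ± 16.2 CPM in dKO and 298 ± 9.19 CPM in WT libraries. Pdgfra, a growth factor receptor gene, averaged 2.399 ± 0.554 CPM in dKO and 38.2 ± 8.53 CPM in WT libraries (edgeR adjusted p = 1.49e-06). Of the other tested markers, named after their values were seen, Postn rose and averaged 6.14 CPM in dKO and 0.433 CPM in WT libraries, and Pi16 fell. The list for endothelial cells and pericytes has 13 genes, with 6 tested, 1 higher and 2 lower in dKO, and Cldn5, Emcn and Kdr were at 0. Their sum was 102.9 to 156.5 CPM in dKO and 73.5 to 78.5 CPM in WT libraries, with Mcam at 129 ± 27.7 CPM in dKO and 50.5 ± 4.68 CPM in WT libraries and Flt1 at 4.25 ± 0.947 CPM in dKO and 22.4 ± 2.07 CPM in WT libraries.

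The leukocyte list has 11 genes, with 4 tested, 3 higher in dKO and Cd14 lower, against 28.6% higher and 28.7% lower over all tested genes. Cd3e, Ms4a1 and Nkg7 were at 0. The sum of the list was 82.1 to 214.5 CPM in dKO and 16.2 to 53.5 CPM in WT libraries. Cd68 had 15.6 ± 1.80 CPM in dKO and 2.15 ± 0.207 CPM in WT libraries (edgeR adjusted p = 2.35e-06). Itgam had 0.375 ± 0.079 CPM in dKO libraries, close to the floor, and 0 in WT libraries. This was at least 1.41-fold higher in dKO against the floor per library (edgeR adjusted p = 0.00262). Csf1r, named after its values were seen because it made up most of this sum in dKO libraries, had 188.5, 189.6 and 62.7 CPM in dKO libraries against 3.55, 14.2 and 1.01 CPM in WT libraries. Whether cells of these types contributed to any collagen level was not tested.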

How the data were processed

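RNA was measured in 3 dKO and 3 WT spheroid libraries. The deposited values are estimated counts per gene, whole numbers without normalization. HISAT2 2.2.1 and StringTie 2.2.1 were used on GRCm38 (mm10), per the submitters' processing notes. How reads were counted per gene, with which annotation and with or without strand, is not given in the sources used here, so genes overlapping on opposite strands cannot be told apart. Symbols, positions and exon lengths came from GENCODE M21, and the 762 identifiers without a match held 0.0293% of counts. The labels call the libraries biological replicates without naming cultures or clones, so p-values reflect only how much these samples vary, and that variation may be technical. No 2 libraries agreed within sampling noise.

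The 15807 genes passing filterByExpr went into a quasi-likelihood test in edgeR 4.0.16 under R 4.3.3 (TMM, glmQLFit and glmQLFTest, genotype only, Benjamini-Hochberg adjustment over all tested genes), tried first on simulated counts. SE is the log2 fold change divided by the root of F. Counting intervals are exact binomial (95%) on counts divided by 4 and, like the floor of 12 counts, cover counting error only. Both assume that a read pair adds up to 4 counts, which was inferred from a pile-up of values at 4 and could not be checked. All 44 members are named; of each gene list the 2 tested genes with the smallest adjusted p are given, besides others named as such. The members and lists were chosen with earlier results of these data known. DESeq2 1.42.0 and other settings served as alternatives.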

Additional observations from a re-analysis of the deposited data

How the results depend on the processing

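Over 15 alternative settings the number of collagen genes called was 12 at an adjusted p under 0.01, 14 with at least 1 CPM in 3 libraries or with counts divided by 4, 16 with other scaling or no filter, and 17 with DESeq2 or without dKO 3 and WT 2. Leaving out each library in turn gave 14 to 16. For all genes the count was 7067 (of 15807 tested, at an adjusted p under 0.01) to 10139 (of 16274 tested, without dKO 3 and WT 2). The number tested also changed with the setting, from 18 to 36 for collagen genes and from 13211 to 25484 for all genes. The scalings moved the median log2 fold change of all genes by at most 0.014. Of the tested members, 19 kept their direction and their side of the threshold in every alternative that gave a value, apart from sign changes of members that never passed. The called members that did not were Col27a1, Col4a1, Col5a1 and Col7a1, of which Col4a1 lost its call at an adjusted p under 0.01 alone. Of the called members, Col1a2 and Col27a1 gave no value with at least 1 CPM in 3 libraries or with counts divided by 4. Their calls could thus not be checked on those settings. Reversals into a call were those of Col4a2 (0.19) and Col8a1 (0.45) without dKO 3 and WT 2. Col6a4, which the filter left out, was called higher in dKO by DESeq2 (adjusted p = 0.0355) and without dKO 1 (edgeR adjusted p = 0.0149). The replicate numbers gave correlations of -0.06, 0.048 and 0.082 between same-numbered libraries and do not pair them. With a replicate block 15 collagen genes and 8658 genes in all were called, and Col5a1 did not pass (edgeR adjusted p = 0.0591). Without the division by length, the partner ratios were 84.1 in dKO for Col4a5 over Col4a6, 1.07 in dKO and 1.55 in WT for Col4a1 over Col4a2, and 44.9 in WT for Col6a1 over Col6a2. Depth limits the members under about 1 CPM, where a library holds few read pairs. The causes of these changes were not tested.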
